A study of Mus musculus with 8 samples.

Results

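The genes of presynaptic vesicles and transmitter release described here are 30 genes listed by symbol: 8 of the SNARE fusion machinery, 4 calcium sensors, 8 vesicle proteins, 2 vesicular glutamate transporters, 6 active zone scaffold and priming genes and 2 neurexins. They were found by symbol among 54446 Ensembl genes of a table of raw read counts, and all 30 were among the 17636 genes that passed the filter on low counts. The study concerns Ino80e, which encodes a subunit of the INO80 chromatin remodeller, and whose human counterpart sits at a locus associated with schizophrenia. Adeno-associated virus was injected into the medial prefrontal cortex of mice to change the expression of the risk gene, and polyadenylated RNA of that region was sequenced in 8 libraries. Of these 4 carry the label Ino80e overexpression and 4 the label wild type, and all are from mouse (Mus musculus) tissue. The sources used here do not state strain, age, the viral promoter, the time after injection, or whether wild-type mice received a control virus.

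A presynaptic terminal stores transmitter in vesicles that carry synapsins, synaptophysin, SV2 proteins and a transmitter transporter in their membrane or on their surface. At the active zone, scaffold proteins such as bassoon, piccolo, RIM and ELKS hold vesicles near calcium channels, and Munc13 proteins prime them. SNARE proteins of the vesicle and of the plasma membrane then zip together to fuse both membranes, complexins and synaptotagmins couple that step to calcium, and NSF with SNAP adaptor proteins takes the used SNARE bundles apart. In the prefrontal cortex most terminals are glutamatergic, and neurexins on their surface bind partners across the cleft.

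None of the 30 genes changed between the overexpression-labelled libraries and the wild-type libraries at an adjusted p under 0.05, which only 6 of 17636 genes (0.034%) passed. Their fold changes were small, from log2 -0.25 for Pclo to log2 0.12 for Syn3. The lowest p-values belonged to the active zone genes Erc2 and Rims2, whose levels were lower in all 4 overexpression-labelled libraries than in any wild-type library. Groups without overlap were seen for 2 of the 30 members, 6.67%, and for 5.84% of all genes tested. Erc2, which encodes an ELKS-family scaffold, averaged 179 ± 2.48 CPM against 197 ± 11.4 CPM (SD, n = 4 each; edgeR adjusted p = 0.36), and Rims2, a RIM scaffold gene, at 126 ± 5.74 against 137 ± 4.44 CPM (SD, n = 4 each; edgeR adjusted p = 0.40). The sign of the fold change followed the GC content of the transcript: all 10 genes with over 55% GC lay above 0, and 12 of 13 with under 50% GC lay below 0. The same ordering held over all genes of at least 5 CPM, of which 87.9% and 21.8% lay above 0 in those classes.

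Library totals ran from 44762378 to 60490153 counts, and CPM are read counts scaled to the library size after normalization by TMM, edgeR's weighted trimmed mean. Ino80e itself stood at 74.1, 23.4, 23.3 and 45.05 CPM in replicates 1 to 4 labelled overexpression and at 22.3, 19.5, 25.5 and 20.7 CPM in wild type (log2 0.91, SE 0.42, edgeR adjusted p = 0.51; exact two-sided permutation p = 0.11, where 0.0286 is the smallest that 4 against 4 libraries allow). Replicates 2 and 3 of the group labelled overexpression lie inside the wild-type range, so directions below are those of the overexpression-labelled libraries. The exons of Ino80e overlap those of Doc2a and Hirip3 on the opposite strand, which leaves its level uncertain unless strand was used in counting. The 7 excitatory neuron markers summed to 6502 to 7532 CPM in the overexpression-labelled libraries and 6154 to 7509 CPM in wild type, and the 7 inhibitory neuron markers to 719 to 799 and 721 to 792 CPM. No marker of the 11 cell type lists passed the test, and none was at 0 in every library. The choroid plexus list summed to 1120.1 CPM in wild-type replicate 4 against 8.71 to 109 CPM in the other 7 libraries, and the microglia list to 471 and 492 CPM in replicates 1 and 2 labelled overexpression against 377 to 428 CPM in wild type. The oligodendrocyte list summed to 4286 CPM in replicate 1 labelled overexpression against 5142 to 6209.9 CPM in the other 7 libraries. These are bulk libraries, in which fewer cells of a type and less RNA per cell cannot be told apart.

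Because the fold changes follow the GC content of whole transcripts, the first sequences come from 3 pairs of related members that differ in it. They are coding starts of the glutamate transporters, SV2 proteins and neurexins. Each is the first 120 coding bases of the longest protein-coding transcript of the gene in the GENCODE M21 annotation of GRCm38, 5′ to 3′, with G and C in capitals.
Slc17a7: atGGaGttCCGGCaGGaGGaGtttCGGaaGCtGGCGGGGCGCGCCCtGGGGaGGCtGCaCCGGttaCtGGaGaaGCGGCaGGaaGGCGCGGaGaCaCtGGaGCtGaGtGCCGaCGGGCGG
Slc17a6: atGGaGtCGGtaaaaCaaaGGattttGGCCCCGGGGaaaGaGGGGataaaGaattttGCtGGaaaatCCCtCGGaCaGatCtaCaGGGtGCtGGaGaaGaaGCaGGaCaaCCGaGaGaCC
Sv2a: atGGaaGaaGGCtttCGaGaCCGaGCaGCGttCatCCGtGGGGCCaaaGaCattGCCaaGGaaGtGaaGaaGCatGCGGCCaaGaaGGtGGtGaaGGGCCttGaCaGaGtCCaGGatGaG
Sv2b: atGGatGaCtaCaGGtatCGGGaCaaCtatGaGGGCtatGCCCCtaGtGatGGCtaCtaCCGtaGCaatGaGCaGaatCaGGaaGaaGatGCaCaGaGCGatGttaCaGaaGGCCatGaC
Nrxn2: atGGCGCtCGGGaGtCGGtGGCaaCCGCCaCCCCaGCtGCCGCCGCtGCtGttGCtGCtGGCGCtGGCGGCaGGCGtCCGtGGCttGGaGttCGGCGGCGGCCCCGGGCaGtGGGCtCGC
Nrxn3: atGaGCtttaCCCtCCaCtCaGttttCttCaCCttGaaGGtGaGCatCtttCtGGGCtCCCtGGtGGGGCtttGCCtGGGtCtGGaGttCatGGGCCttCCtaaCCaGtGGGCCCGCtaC

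In these stretches 83 of 120 bases of Slc17a7 are G or C against 60 in Slc17a6, 66 in Sv2a against 59 in Sv2b, and 91 in Nrxn2 against 67 in Nrxn3. Whether fold changes follow the coding start across all members was not tested. Pclo, with the lowest fold change, has 91 G or C there, as many as Nrxn2. Over the whole coding sequence the GC content was 58.6% in Slc17a7 and 49.03% in Slc17a6, 55.7% in Sv2a and 50.02% in Sv2b, and 62.7% in Nrxn2 and 52.5% in Nrxn3. At the third codon position it was 77.2% in Nrxn2, 63.1% in Nrxn3, and lowest of all 30 members in Pclo, at 41.00%. Over whole transcripts, untranslated regions included, the members ran from 42.9% GC in Slc17a6 to 62.4% in Nrxn2, with a median of 52.1%. No stretch of 50 bases was shared between transcripts of any pair of members, so stretches of that length tell related members apart.

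Promoters, taken as the 250 bases before each RefSeq start on GRCm38.p6, were found for 23 of the 30 genes, 33 promoters in all. Their GC content had a median of 60%, against 52.4% over all promoters in the table. A GC box (GGGCGG, either strand) was present before 15 of 23 members, 65.2%, and before 35.4% of all 27025 genes. The TATAAA motif was present in 1 of 23, 4.35%, against 14.3% of all genes. A gene was counted if any of its promoters matched. Per promoter, the GC box was in 48.5% of the 33 and 32.7% of all 32851. For TATAAA these shares were 6.06% and 12.4%. The cAMP response element TGACGTCA, bound by CREB proteins, was found in Syn1 alone of the 23, against 1.77% of all genes. These letters were searched on both strands, and a match describes the sequence only. The promoter of Syn1 is shown because it is the member that holds this element, in capitals. The stretch is 164 bases on the minus strand of GRCm38.p6 at chrX:20921005-20921168, and ends before the GENCODE M21 gene.
Syn1: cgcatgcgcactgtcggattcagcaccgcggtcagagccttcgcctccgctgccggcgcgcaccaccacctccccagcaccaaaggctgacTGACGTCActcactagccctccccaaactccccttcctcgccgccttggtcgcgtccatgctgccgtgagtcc

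Levels were set per kilobase of exon, with every exon base annotated for a gene counted, so comparisons between genes depend on that length. The wild-type libraries held most of Snap25, the plasma membrane SNARE gene, at 421 ± 18.1 CPM per kb (SD, n = 4). Slc17a7, which encodes the main vesicular glutamate transporter of cortex, followed at 364 ± 21.7 CPM per kb, and the complexin genes Cplx2 and Cplx1, whose products bind the SNARE bundle, at 343 ± 25.3 and 324 ± 15.6 CPM per kb. Neighbours among these last 3 differ by about their SD. Syn1, Syt1 and Vamp2 came next at 289 ± 21.96, 279 ± 18.3 and 266 ± 11.2 CPM per kb, again close to each other beside their SD. The active zone genes stood far lower, from 57.2 ± 3.46 CPM per kb for Bsn to 13.2 ± 0.427 for Rims2, and the neurexins at 33.1 ± 1.97 for Nrxn2 and 20.5 ± 1.56 for Nrxn3.

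Within families the second gene was often a small part of the first. Per length, the wild-type ratio of Slc17a6, the transporter of thalamic and other subcortical glutamatergic neurons, to Slc17a7 was 0.00926. That of Vamp1 to Vamp2, the vesicle SNARE genes, was 0.0487, that of Syt2 to Syt1, both fast calcium sensors, 0.0324, and that of Sv2c to Sv2a 0.03198. Cplx2 and Cplx1 were nearly equal at 1.06, and Sv2b stood at 0.693 of Sv2a. Without the length, Cplx2 and Cplx1 averaged 1691 and 709 CPM in wild type, and Sv2b and Sv2a 744 and 593 CPM. The lowest level per length was that of Syn3, the third synapsin gene, at 1.24 ± 0.0367 CPM per kb. In CPM the lowest wild-type mean was that of Doc2b, at 14.8 ± 3.19, beside 15.2 ± 0.450 for Syn3 (SD, n = 4 each). Of the exon bases of Syn3, 14.1% overlap Timp3 on the opposite strand, and 16.8% of those of Syp overlap an antisense gene, so the counts of these members are uncertain if the counting did not use strand.

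**Figure D1:**
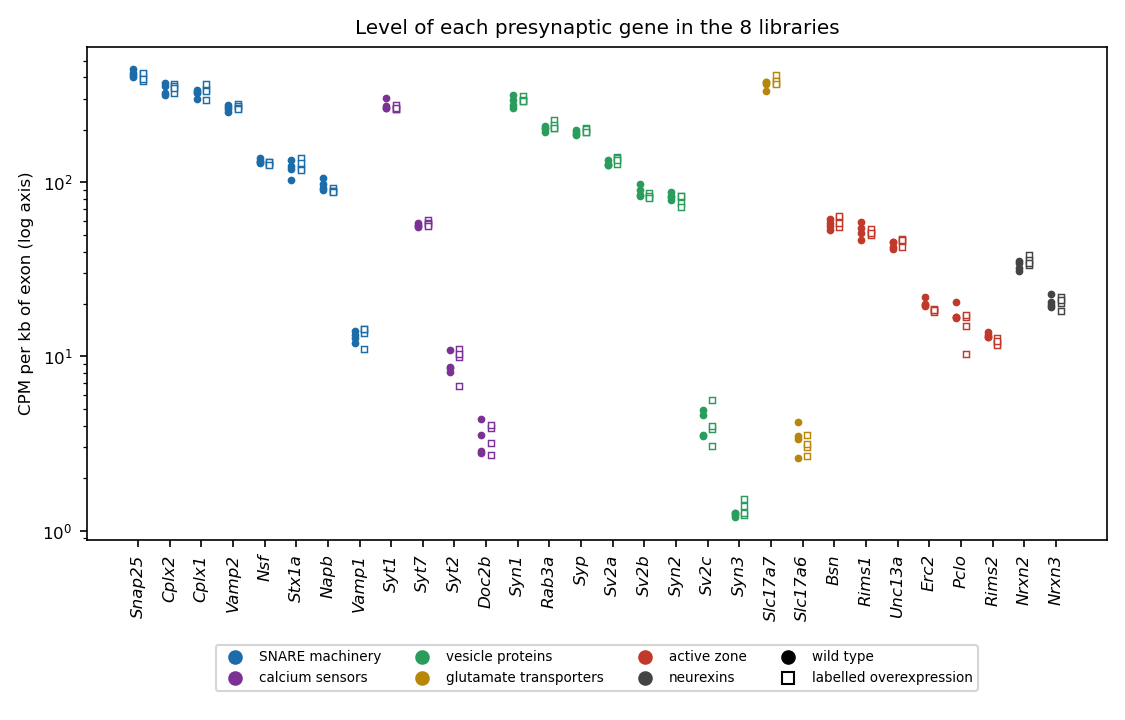
Level of each of the 30 genes in CPM per kilobase of exon (log axis), with a point for every library: filled circles for the 4 wild-type libraries and open squares for the 4 labelled overexpression, coloured by role. Snap25, Slc17a7 and the complexins stand highest, Syn3 lowest, and the points of both groups lie side by side for nearly every gene.

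In the comparison of the overexpression-labelled libraries with wild type, 6 of 17636 genes passed (edgeR's quasi-likelihood test, Benjamini-Hochberg adjusted p under 0.05), which is 0.034% of genes (0.0113% higher and 0.0227% lower), and 0 of the 30 members did. At an unadjusted p under 0.05, 2 of the 30 were lower, Erc2 and Rims2, and 0 were higher. That is 6.67% of the members, against 10.7% of all genes tested. In the same way the groups did not overlap in CPM for 2 members, again Erc2 and Rims2, 6.67% against 5.84% of all genes (2.82% higher and 3.02% lower). DESeq2 and limma-voom each gave 0 members at an adjusted p under 0.05 and 3 at an unadjusted p under 0.05, all lower. Those 3 are 10% of the members, against 7.29% of the 29928 genes DESeq2 tested with no low-count filter and 10.5% of the genes in limma-voom. Of the 30 fold changes, 17 lay above 0, where 50.5% of all genes did, and 13 below, with a median of log2 0.029 and a mean of -0.0040, which differ in sign; over all genes tested the median was 0.0016.

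For 24 of the 30 the 95% interval of the fold change, from the edgeR standard error, lay wholly within 1.2-fold in either direction, and for 29 within 1.5-fold. The exceptions at 1.2-fold were Syn3, Syt2, Pclo, Slc17a6, Sv2c and Doc2b, of which only Pclo also exceeded 1.5-fold, with an interval from log2 -0.69 to 0.18. All 30 together took 2.05% to 2.14% of the counts in the overexpression-labelled libraries and 2.04% to 2.15% in wild type, and these ranges overlap.

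**Figure D2:**
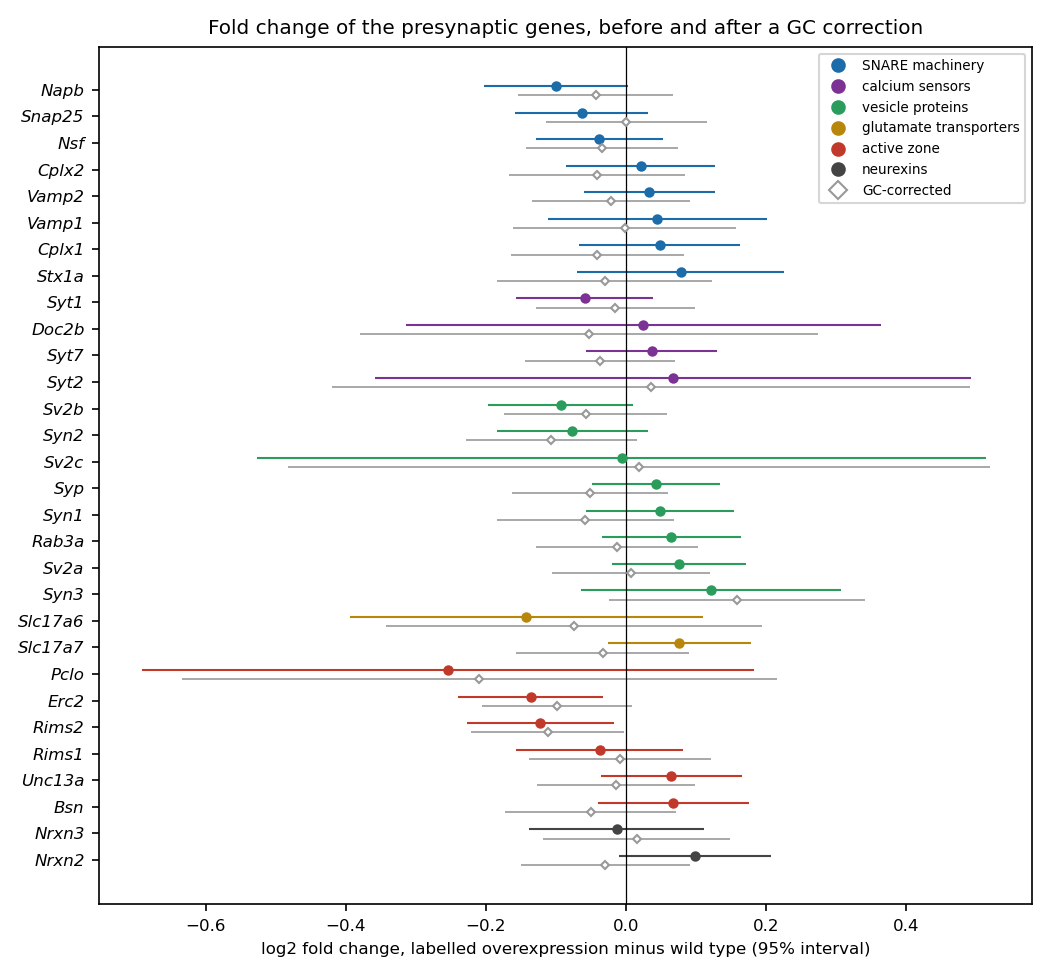
Log2 fold change of each of the 30 genes, overexpression-labelled libraries minus wild type, with its 95% interval (horizontal axis), grouped and coloured by role. Grey diamonds give the same after a correction for transcript GC content. Only the intervals of Erc2 and Rims2 exclude 0 before the correction, and only that of Rims2 after it.

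The SNARE machinery held 8 members, of which 5 lay above 0 and 3 below and none passed. Snap25 stood at 2872, 3019, 2821 and 2724 CPM in wild type and at 2827, 2599.8, 2860.3 and 2662 CPM in the overexpression-labelled libraries. The groups overlap, with replicate 2 labelled overexpression lowest of all 8 libraries (log2 -0.063, SE 0.046, edgeR adjusted p = 0.63). Napb, which encodes a brain SNAP adaptor of NSF, had the lowest p of the group: it stood at 686, 742, 654 and 635 CPM in wild type and 656, 630.1, 630.1 and 620.3 CPM in the overexpression-labelled libraries. Its groups overlap too, since wild-type replicates 3 and 4 lie among the overexpression-labelled libraries (log2 -0.10, SE 0.050, edgeR adjusted p = 0.48). Stx1a, the syntaxin of the plasma membrane, ranged over 273 to 356 CPM in wild type and 314 to 367 CPM in the overexpression-labelled libraries (log2 0.078, SE 0.070). Vamp2, the main vesicle SNARE gene, ranged over 963 to 1063 CPM in wild type and 1007 to 1075 CPM in the overexpression-labelled libraries (log2 0.033, SE 0.045), and Vamp1 from 121 to 142 CPM in wild type and 112 to 147 CPM in the overexpression-labelled libraries (log2 0.045, SE 0.074). The ATPase gene Nsf (log2 -0.038) and the complexin genes Cplx1 (log2 0.048) and Cplx2 (log2 0.021) gave values whose intervals all include 0.

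Of the 4 calcium sensors 3 lay above 0 and none passed. Syt1, the fast sensor of most forebrain terminals, ranged over 2228 to 2549.8 CPM in wild type and 2200.3 to 2308 CPM in the overexpression-labelled libraries (log2 -0.059, SE 0.047, edgeR adjusted p = 0.67). Syt7, a slow sensor with high calcium affinity, ranged over 412 to 436 CPM in wild type and 419.7 to 453 CPM in the overexpression-labelled libraries (log2 0.037, SE 0.045). Syt2 and Doc2b, a sensor linked to spontaneous and asynchronous release, were far less precise. Syt2 stood at 62.2, 83.3, 65.6 and 66.5 CPM in wild type and at 75.6, 51.5, 84.3 and 79.3 CPM in the overexpression-labelled libraries, and replicate 2 labelled overexpression is the lowest of the 8 (log2 0.068, SE 0.18). Doc2b stood at 15.5, 12.5, 12.2 and 19.03 CPM in wild type and at 11.8, 16.98, 17.6 and 13.8 CPM in the overexpression-labelled libraries, with the highest value in a wild-type library and the lowest in a library labelled overexpression (log2 0.025, SE 0.16).

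Among the 8 vesicle proteins 5 lay above 0, 3 below and none passed. The synapsin gene Syn1, whose product ties vesicles into clusters, ranged over 877 to 1042 CPM in wild type and 962 to 1035 CPM in the overexpression-labelled libraries (log2 0.048, SE 0.051), and Syp, encoding synaptophysin, from 971 to 1044 CPM in wild type and 1006 to 1064 CPM in the overexpression-labelled libraries (log2 0.043, SE 0.044). Syn2 stood lowest in replicates 3 and 4 labelled overexpression, at 536 and 505 CPM, against 558 to 616 CPM in wild type (log2 -0.076, SE 0.052, edgeR adjusted p = 0.60). Rab3a, a small GTPase of synaptic vesicles, had a log2 fold change of 0.065 (SE 0.048). The SV2 genes encode vesicle glycoproteins. Sv2a stood at 583, 620.2, 579 and 589 CPM in wild type and at 648, 589, 643 and 621 CPM in the overexpression-labelled libraries (log2 0.076, SE 0.046, edgeR adjusted p = 0.56). Sv2b stood at 753, 815, 712 and 695 CPM in wild type and at 725, 687, 697 and 680.3 CPM in the overexpression-labelled libraries (log2 -0.093, SE 0.050, edgeR adjusted p = 0.52). Sv2a and Sv2b thus had opposite signs, and both overlapped between groups.

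Sv2c, the SV2 gene best known from basal ganglia, varied most between libraries among the SV2 genes. Sv2c stood at 34.4, 44.8, 33.7 and 47.5 CPM in wild type and at 29.8, 37.2, 38.8 and 54.1 CPM in the overexpression-labelled libraries (log2 -0.0056, SE 0.22). The summed level of 8 striatal neuron markers, which included Drd1, Drd2 and Adora2a, was 302, 249.9, 192 and 372 CPM in wild type and 183, 348, 352 and 422 CPM in the overexpression-labelled libraries. Replicate 4 labelled overexpression is highest and replicate 1 lowest in both series, and among wild type replicate 3 is lowest in both. The part of the striatal markers in the spread of Sv2c was not tested. All 8 markers of that list lay above 0 in the comparison of groups and none passed.

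Both vesicular glutamate transporters missed the threshold, with opposite signs. Slc17a7 stood at 1977, 2039.9, 2036 and 1791 CPM in wild type and at 2218, 2004, 2065 and 1982 CPM in the overexpression-labelled libraries (log2 0.076, SE 0.050, edgeR adjusted p = 0.58). Slc17a6 stood at 14.03, 18.8, 18.2 and 22.6 CPM in wild type and at 16.2, 14.4, 19.1 and 16.97 CPM in the overexpression-labelled libraries (log2 -0.14, SE 0.12, edgeR adjusted p = 0.69). The highest value of Slc17a6 and the lowest of Slc17a7 are both in wild-type replicate 4. The Slc17a6 fold change was log2 -0.029 without that library and log2 -0.25 without wild-type replicate 1, which holds its lowest value. The 7 markers of thalamic neurons summed to 79.9 CPM in wild-type replicate 4 and to 54.03 to 66.7 CPM in the other 7 libraries. Tcf7l2, a defining thalamic marker, stood between 3.82 and 5.64 CPM throughout. The part of these markers in the spread of Slc17a6 was not tested.

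The active zone genes were the role group with the lowest median, log2 -0.080 over 6 genes, of which 4 lay below 0. Those 4 have under 50% transcript GC, and the 2 above 0 have over 55%. In a wider list described below, 19 other active zone genes had a median of log2 -0.029 and 13 other SNARE genes one of -0.052. Corrected for GC, all 6 active zone members lay below 0, with a median of log2 -0.074, again the lowest of the role groups. By then 24 of all 30 members lay below 0, and the corrected median of the 19 other active zone genes was log2 -0.022. Erc2 stood at 194, 214, 189 and 191 CPM in wild type and at 176, 182, 179.8 and 179.9 CPM in the overexpression-labelled libraries. All 4 overexpression-labelled libraries lie below all 4 of wild type, and wild-type replicate 2 is the highest (log2 -0.14, SE 0.050, edgeR adjusted p = 0.36). Rims2 stood at 134, 143, 134 and 138 CPM in wild type and at 133, 123, 119.97 and 127 CPM in the overexpression-labelled libraries. Here too the groups do not overlap, by a margin of less than 1 CPM between replicate 1 labelled overexpression and the wild-type replicates 1 and 3 (log2 -0.12, SE 0.051, edgeR adjusted p = 0.40). After the GC correction Erc2 stood at log2 -0.10 (SE 0.052, edgeR adjusted p = 0.99) and Rims2 at log2 -0.11 (SE 0.053, edgeR adjusted p = 0.99). Without replicates 2 and 3 labelled overexpression, left out after seeing the data, Erc2 stood at log2 -0.15 and Rims2 at log2 -0.072. On GRCm38 Erc2 (ENSMUSG00000040640) lies on chromosome 14 at 27622428 to 28478537 (plus strand) and Rims2 (ENSMUSG00000037386) on chromosome 15 at 39198261 to 39684372 (plus strand). Erc2 shares 1.09% of its exon bases with an antisense gene.

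Pclo, which encodes the giant scaffold piccolo, had the fold change furthest from 0 and one of the widest errors. Pclo stood at 374, 460.1, 378 and 379 CPM in wild type and at 230.3, 336, 378 and 388 CPM in the overexpression-labelled libraries. Replicate 1 labelled overexpression, the library with the most Ino80e, is far below the other 7. Replicate 4 labelled overexpression, where Ino80e is also above the wild-type range, holds the most Pclo of its group, at 388 CPM. Wild-type replicate 2 is above the rest (log2 -0.25, SE 0.18, edgeR adjusted p = 0.65). Without replicate 1 labelled overexpression the value was log2 -0.11 (SE 0.070, edgeR adjusted p = 0.62). The part of the low oligodendrocyte marker sum of that library was not tested. Pclo (ENSMUSG00000061601) lies on chromosome 5 at 14514918 to 14863459 (plus strand). Its partner Bsn, encoding bassoon, was not low in replicate 1: it stood at 848, 978, 929 and 892 CPM in wild type and 992, 883, 1016 and 931 CPM in the overexpression-labelled libraries (log2 0.068, SE 0.052, edgeR adjusted p = 0.65). Unc13a, the main Munc13 priming gene (log2 0.065, SE 0.049), lay above 0 and Rims1 (log2 -0.037, SE 0.058) below, and neither passed.

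**Figure D3:**
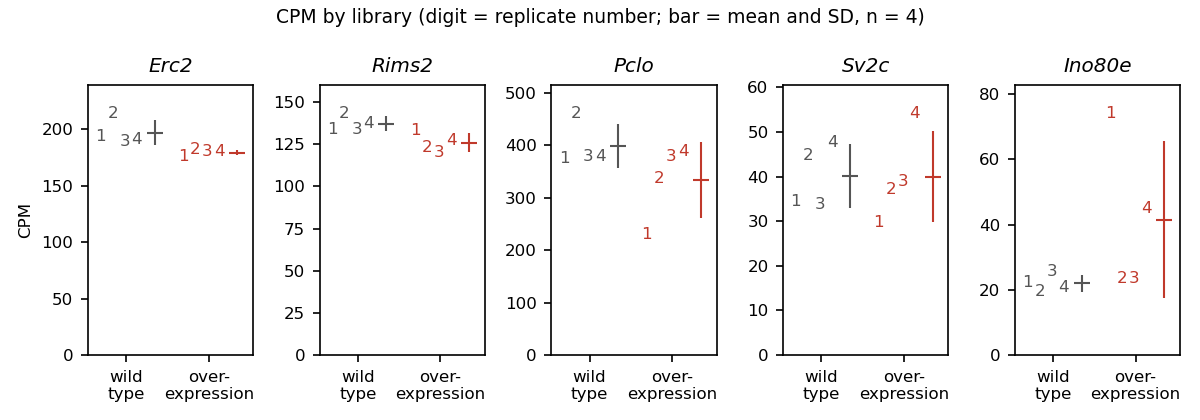
CPM of Erc2, Rims2, Pclo, Sv2c and Ino80e by library (vertical axes from 0), each digit a library and its replicate number, wild type in grey and labelled overexpression in red, with the mean and SD of 4 libraries beside them. Erc2 and Rims2 are lower in all 4 overexpression-labelled libraries, Pclo is lowest in replicate 1, and Ino80e lies above the wild-type range in replicates 1 and 4.

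The neurexin genes encode presynaptic adhesion receptors. Nrxn2 stood at 446, 487, 472 and 425 CPM in wild type and at 528, 464, 497 and 472 CPM in the overexpression-labelled libraries (log2 0.10, SE 0.052, edgeR adjusted p = 0.51). Nrxn3 stood at 258, 287, 242 and 248 CPM in wild type and at 275, 229, 255 and 267 CPM in the overexpression-labelled libraries (log2 -0.013, SE 0.060, edgeR adjusted p = 0.95). Both genes overlap between groups. The highest value of Nrxn2 is in replicate 1 labelled overexpression, and that of Nrxn3 in wild-type replicate 2.

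Read across roles, the fold changes were ordered by transcript GC content. Fold change and GC content had a rank correlation of 0.76 over the 30 members and 0.65 over 11326 genes of at least 5 CPM, a description across genes that share the same 8 libraries. With over 55% GC, 10 of 10 members lay above 0 (median log2 0.065), as did 87.9% of all genes of at least 5 CPM in that class (median log2 0.090). Under 50% GC, 1 of 13 members, Syn3, lay above 0 (median log2 -0.063), beside 21.8% of all such genes (median log2 -0.069). Between 50% and 55%, 6 of 7 members lay above 0, all but Syn2, beside 64.1% of all such genes. The slope of log2 CPM on GC, per 10 points and relative to the mean of each gene, was 0.043, 0.036, 0.094 and 0.054 in the overexpression-labelled libraries and -0.070, -0.13, 0.021 and -0.046 in wild type. All 4 overexpression-labelled libraries lie above all 4 of wild type.

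A correction entered each library's smooth GC trend as an offset in the edgeR fit. This removes the trend over all genes by construction, and with it any difference between the groups that runs with GC content. After the correction, the rank correlation over the members was -0.0042, 6 members lay above 0 and 24 below, and their median was log2 -0.034. Over all genes tested the corrected median was -0.013, and in the 3 GC classes 40.3%, 40.98% and 42.1% of genes of at least 5 CPM lay above 0. Only Rims2 had an unadjusted p under 0.05, 1 of 30 members, where 4.84% of all genes did, and none passed adjusted, where 0.0284% of all genes passed. Syn3 kept the highest value (log2 0.16, SE 0.089) and Pclo the lowest (log2 -0.21, SE 0.18). Slc17a7 went from log2 0.076 to -0.033, Nrxn2 from 0.10 to -0.029 and Bsn from 0.068 to -0.050.

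**Figure D4:**
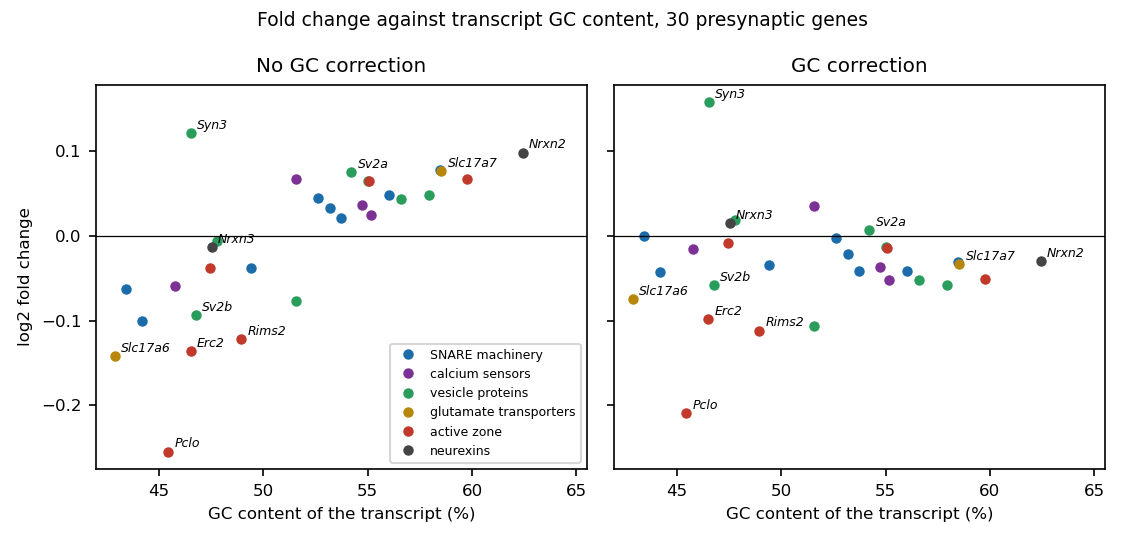
Log2 fold change (vertical axis) of the 30 genes against the GC content of the transcript in percent (horizontal axis), without (left) and with (right) the GC correction, coloured by role. On the left the points rise with GC content from Slc17a6 to Nrxn2, with Syn3 and Pclo off the trend. On the right the correction, which is fitted to GC content, has removed the slope.

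The ratio of 2 related members within a library does not depend on library size or scaling, and 12 such ratios were compared by an exact two-sided permutation test. The log2 ratio of Sv2b to Sv2a counts was 0.37, 0.39, 0.30 and 0.24 in wild type and 0.16, 0.22, 0.12 and 0.13 in the overexpression-labelled libraries. The groups do not overlap, and the difference of -0.17 reached the smallest p the design allows (exact p = 0.0286). Adjusted over the 12 ratios, this p was 0.21, the lowest of the family and shared with other ratios. At that smallest exact p, 1 ratio alone could not pass an adjustment over 12, so the adjusted value cannot decide. After the GC correction the difference was -0.063 (exact p = 0.14). Without the correction the ratio of Pclo to Bsn differed most, by -0.35 (exact p = 0.057, adjusted p = 0.21). With it the difference was -0.18 (exact p = 0.49), and that of Syn3 to Syn1 was then the furthest from 0, at 0.21 (exact p = 0.14). The uncorrected log2 ratio of Pclo to Bsn was -2.11 in replicate 1 labelled overexpression and -1.39, -1.43 and -1.26 in replicates 2 to 4. In wild type it was -1.18, -1.09, -1.30 and -1.24. The ratios of Syn2 to Syn1, Syt7 to Syt1 and Nrxn3 to Nrxn2 differed by -0.13, 0.094 and -0.11 (exact p = 0.0857 for each). The ratio of Vamp1 to Vamp2 was nearly level between the groups, at a difference of 0.0048, with an SD of 0.060 among wild-type and 0.20 among overexpression-labelled libraries (n = 4 each). In replicate 2 labelled overexpression that ratio and the ratio of Syt2 to Syt1 are both the lowest of the 8 libraries, at -3.22 and -5.42. Vamp1 and Syt2 are enriched in fast-spiking interneurons, whose 5 markers summed to 442 CPM in that library, the lowest of the 8, against 469 to 515 CPM in the others. Their part in these ratios was not tested.

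Some libraries stood at an extreme for many members. Wild-type replicate 2 was the highest library for 13 of the 30 members and the lowest for 0, and of all genes of at least 5 CPM it held the highest of 22.4% and the lowest of 17.4%. Wild-type replicate 4, the library with the highest choroid plexus sum, held the lowest level of 12 members, against 12.9% of all such genes. That sum was 109 CPM in wild-type replicate 3, 108 CPM in replicate 3 labelled overexpression, and at most 18.1 CPM in the remaining libraries. The part of the choroid plexus signal in the member levels was not tested. Replicate 1 labelled overexpression was highest for 8 members and lowest for 4, where it was highest for 11.4% and lowest for 12.1% of all such genes. The mean log2 shift of the 30 members from their wild-type mean was -0.0015, -0.072, 0.043 and 0.0095 in the overexpression-labelled libraries and -0.039, 0.086, -0.010 and -0.037 in wild type, so the groups overlap. For the 6 active zone genes it was -0.14, -0.11, -0.013 and -0.031 against -0.053, 0.12, -0.0048 and -0.063.

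Beyond the members, a wider list of 96 other presynaptic genes was tested in the same fit. Of these 49 lay above 0 and 47 below, and their median was log2 0.0021. None passed at an adjusted p under 0.05. At an unadjusted p under 0.05, 7 were higher and 6 lower, 13.5% in all, and the groups did not overlap for 5 higher and 3 lower. Those without overlap are 8.33% of the 96, against 5.84% of all genes. At an unadjusted p under 0.05 5.24% of all genes were higher and 5.43% lower. Rab3c, a vesicle GTPase related to Rab3a, had the lowest p (log2 -0.21, SE 0.060, edgeR adjusted p = 0.31). Rab3c stood at 564, 647, 522 and 532 CPM in wild type and at 502, 522, 477 and 460.2 CPM in the overexpression-labelled libraries. The groups do not overlap, by less than 1 CPM between wild-type replicate 3 and replicate 2 labelled overexpression. Without a filter on low counts Rab3c passed (edgeR adjusted p = 0.024), in a fit where 83 of 29946 genes passed, against 6 of 17636 with the filter. Also below 0 were Ppfia2, a liprin scaffold gene (log2 -0.16, SE 0.054), Cacna2d1, a calcium channel subunit gene (log2 -0.20, SE 0.084), Stx12, an endosomal syntaxin gene (log2 -0.13, SE 0.062), and Rab5a, of early endosomes (log2 -0.12, SE 0.053). Above 0 were the receptor phosphatase genes Ptprs (log2 0.13, SE 0.045) and Ptprf (log2 0.12, SE 0.050), the liprin gene Ppfia4 (log2 0.16, SE 0.064), Sncb, which encodes beta-synuclein (log2 0.14, SE 0.056), and Syt3 (log2 0.16, SE 0.069). The 5 below 0 have 40.7% to 44.1% transcript GC and the 5 above 0 have 57.8% to 61.4%. After the GC correction Rab3c stood at log2 -0.13 (SE 0.057, edgeR adjusted p = 0.99) and Ptprs at log2 0.0063 (SE 0.052). With the correction, 2 of the 96 had an unadjusted p under 0.05, where 4.84% of all genes did. Of these 2 only Rab3c was under it before. Above 0 lay 34 of the 96 and below 0 lay 62, where 7934 of all 17636 genes lay above 0.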

How the data were processed

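The values are raw read counts per Ensembl gene, deposited by the authors in a table with 1 column per library. Per the submitters' processing notes the tools were Trimmomatic 0.39, STAR 2.7.10 and featureCounts 2.0.3, with mm10 and GRCm38 as builds; the sources used here state no strand setting, annotation release or handling of reads with several positions. Libraries were strand-specific, per the labels' protocols. Symbols, positions, exon length and transcript GC came from GENCODE M21 (GRCm38), and promoters from RefSeq (GRCm38.p6). Genes were filtered with filterByExpr, scaled by TMM and tested over all 17636 genes with edgeR 4.0.16 (robust quasi-likelihood F test, R 4.3.3), checked on simulated data. SE is the absolute log2 fold change divided by the root of F. The GC correction fits a natural spline (5 df) to log2 CPM (prior count 2) against GC, library by library. Ratios use counts plus 0.5. Alternatives were DESeq2 1.42.0, limma-voom (limma 3.58.1), RLE size factors, no filter, no robust estimation, a GC correction, a replicate block and leaving out libraries. Counts of every pair of libraries differed by at least 9.07 in chi-square per df, so none is a copy. The labels do not say that libraries come from separate mice, so p-values measure the spread between libraries, which may be partly technical. Members, lists and tests were chosen with earlier results of these data known. Named genes are the 30 members, Ino80e, marker genes and, of the wider list, the 5 with the lowest p in each direction.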

Additional observations from a re-analysis of the deposited data

Results flagged for a closer look

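Of 86 groups of 4 values checked, 3 held a library far from the other 3, where chance gives about 1 in 20. Syt1 stood at 2308 CPM in replicate 1 labelled overexpression against 2200.3 to 2215 CPM in the other libraries of that group. Pclo stood at 460.1 CPM in wild-type replicate 2 against 374 to 379 CPM in the other wild-type libraries, and without that library its log2 fold change was -0.18 (SE 0.19). The log2 ratio of Nrxn3 to Nrxn2 was -0.96 in wild-type replicate 3 against -0.79 to -0.76 in the other wild-type libraries.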

How the results depend on the processing

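No member passed the threshold under any of the alternatives; the lowest adjusted p was that of Erc2 in DESeq2 (0.18), and Erc2, Rims2 and Pclo kept their sign under each. The 6 genes called over the whole table became 83 with no low-count filter, 40 with DESeq2, 2 with limma-voom, 2 with no robust estimation, 1 without replicates 2 and 3 labelled overexpression (left out after seeing the data), and 1 to 8 with any single library left out (2 without overexpression-labelled replicate 1, 1 without overexpression-labelled replicate 2, 2 without overexpression-labelled replicate 3, 8 without overexpression-labelled replicate 4, 1 without wild-type replicate 1, 1 without wild-type replicate 2, 1 without wild-type replicate 3, 1 without wild-type replicate 4). At an unadjusted p under 0.05 those single omissions gave 0 to 4 members higher and 1 to 4 lower, 3.33% to 16.7% of the 30, where 7.397% to 13.8% of all genes did. The highest member share was without overexpression-labelled replicate 2, where 11.3% of all genes did. Without a low-count filter 1 of the 96 other presynaptic genes passed, Rab3c. The cause of these differences was not tested. The GC correction reversed the sign of these log2 fold changes, none of them called before or after: Syn1 -0.058, Syp -0.051, Syt7 -0.036, Snap25 0.00063, Vamp1 -0.0018, Vamp2 -0.021, Stx1a -0.030, Unc13a -0.014, Bsn -0.050, Slc17a7 -0.033, Cplx1 -0.041, Cplx2 -0.041, Sv2c 0.019, Nrxn2 -0.029, Nrxn3 0.015, Rab3a -0.013, Doc2b -0.052. It took the Sv2b to Sv2a ratio from its exact p of 0.0286 to 0.14, leaving 0 of 12 ratios under 0.05 (difference -0.063), and reversed the ratios of Syt7 to Syt1 (-0.023), Cplx2 to Cplx1 (0.0039), Nrxn3 to Nrxn2 (0.040). With single libraries left out, the sign turned in some fits for Syt2 -0.012 to 0.20, Rims1 -0.092 to 0.016, Cplx2 -0.013 to 0.058, Sv2c -0.19 to 0.11, Nrxn3 -0.049 to 0.038, Doc2b -0.062 to 0.17 (lowest to highest log2 fold change), and without replicates 2 and 3 labelled overexpression for Sv2c 0.065, Nrxn3 0.068, Doc2b -0.21.

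The shared replicate numbers do not pair the libraries: deviations from the group means correlated at -0.025, -0.071, 0.077 and 0.033 for numbers 1 to 4. With the replicate block the whole table gave 1 call and the members 0; with the replicate block and the GC correction together it gave 2 calls and the members 0, with reversed signs for Syn1 -0.053, Syp -0.050, Syt7 -0.037, Vamp1 -0.0070, Vamp2 -0.020, Stx1a -0.026, Unc13a -0.012, Bsn -0.047, Slc17a7 -0.031, Cplx1 -0.042, Cplx2 -0.038, Sv2c 0.0058, Nrxn2 -0.026, Nrxn3 0.014, Rab3a -0.013, Doc2b -0.048. Doc2b, Syn3 and Slc17a6 had the fewest counts of the members, up to 22.6 CPM in any library.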
